A study of Mus musculus with 12 samples.

Results

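Type I interferon response genes were followed in orthotopic oral tumors of mice treated with a control IgG, an anti-CSF1R antibody, interleukin-10 fused to an Fc part, or a fusion of both agents. The genes were 41 of the 55401 genes of the expression table, taken by symbol from a list of 4 nucleic acid sensors, 3 transcription factors and 34 effectors. All 41 were found, and all 41 passed the filter on low values, which asked for at least 1 FPKM (fragments per kilobase of transcript, scaled to the size of the library) in at least 3 of the 12 libraries.

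Type I interferons are secreted proteins that are made when a cell senses foreign or misplaced nucleic acid. They bind the receptor chains Ifnar1 and Ifnar2, whose kinases Jak1 and Tyk2 activate Stat2, which with Irf9 forms part of a complex that binds the interferon-stimulated response element in the promoters of many genes. The products of those genes degrade viral RNA, block translation or trap virus particles, and some of them are the sensors and factors of the same pathway. In tumors the response is known for its role in the priming of T cells.

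The element that the complex with Stat2 and Irf9 binds holds direct repeats of GAAA, and the promoters of the genes whose values are followed most closely show how it sits in some of them. The letters GAAANNGAAA were searched on both strands in windows from 250 bases before to 50 bases after the start of each gene (RefSeq, GRCm38.p6), and overlapping matches were counted apart. They were found in 14 of the 29 response genes with an entry in that table (48.3%) and in 1079 of 27025 genes in all (3.99%). Dhx58, Zbp1, Oas1b, Oas2, Mx1, Mx2, Usp18, Parp9, Parp14, Ifi27, Ifi27l2a and Rtp4 had no entry. Isg15 held 3 matches that overlapped, beginning 78, 72 and 66 bases before the start, Ifit1 held 2, beginning 104 and 85 bases before it, and Rsad2 held 1, beginning 120 bases before it. Oasl1 held none in this window, which says only that these letters are not there. The windows below run 5′ to 3′ on the strand of the gene, with matches on either strand in capitals.
Isg15 (chr4:156200769-156201068, minus strand): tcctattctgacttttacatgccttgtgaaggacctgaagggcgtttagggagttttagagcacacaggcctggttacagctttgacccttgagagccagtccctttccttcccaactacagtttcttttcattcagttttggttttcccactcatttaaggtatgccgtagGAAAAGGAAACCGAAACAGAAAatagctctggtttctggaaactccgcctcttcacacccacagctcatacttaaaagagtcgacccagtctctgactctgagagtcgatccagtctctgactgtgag
Ifit1 (chr19:34640639-34640938, plus strand): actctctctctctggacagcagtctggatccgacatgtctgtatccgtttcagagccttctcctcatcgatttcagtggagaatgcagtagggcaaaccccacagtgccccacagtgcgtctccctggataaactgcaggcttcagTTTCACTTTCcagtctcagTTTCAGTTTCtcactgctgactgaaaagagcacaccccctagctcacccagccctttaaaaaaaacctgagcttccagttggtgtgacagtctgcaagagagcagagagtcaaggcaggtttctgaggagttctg
Rsad2 (chr12:26456403-26456702, minus strand): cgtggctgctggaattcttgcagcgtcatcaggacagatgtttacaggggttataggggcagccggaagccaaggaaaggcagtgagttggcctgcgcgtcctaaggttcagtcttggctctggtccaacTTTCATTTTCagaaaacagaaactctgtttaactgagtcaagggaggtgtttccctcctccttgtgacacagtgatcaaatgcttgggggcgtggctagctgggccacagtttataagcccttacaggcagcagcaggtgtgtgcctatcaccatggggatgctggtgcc
Oasl1 (chr5:114922990-114923289, plus strand): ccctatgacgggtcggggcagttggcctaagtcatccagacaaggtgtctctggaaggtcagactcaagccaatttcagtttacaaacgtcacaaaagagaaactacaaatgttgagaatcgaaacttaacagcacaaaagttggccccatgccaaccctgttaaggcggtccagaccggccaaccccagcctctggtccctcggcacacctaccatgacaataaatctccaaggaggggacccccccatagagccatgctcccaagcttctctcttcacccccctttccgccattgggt

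According to the labels, MTC-Q1, a mouse oral cancer line, was grown orthotopically in C57BL/6 animals, which were treated from a tumor volume of 100 mm3 on. The study's methods give an age of 6 to 8 weeks, intraperitoneal dosing and equivalent molar doses, and the labels state the number of doses as 4 in one place and 6 in another. Each group held 3 libraries of RNA from whole tumor tissue: Ctrl-IgG received the isotype control (IgG1-Fc), aCSF1R the antibody against CSF1R, a receptor that macrophages depend on, IL-10-Fc the recombinant IL10-Fc protein, and BF10 the IL10/CSF1R fusion protein, in which human interleukin-10 sits at the C terminus of the anti-CSF1R antibody. No age or sex is given per library, nothing says which libraries came from which animals, and p-values measure the spread between these libraries.

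The libraries did not differ by treatment alone. In 6 libraries, those of Ctrl-IgG and aCSF1R, Xist reached 0.04 FPKM at the highest and the MHC class II gene H2-Ea 0.27, whereas in the other 6, those of IL-10-Fc and BF10, their lowest values were 17.09 and 552.8 FPKM. H2-Ea is not expressed in C57BL/6 mice, so its level in the latter goes against 1 strain for all libraries. The simple epithelial keratin Krt18 was at most 0.09 FPKM in the former and at least 293.6 FPKM in the latter. The Y-linked Eif2s3y was 4.23 to 11.33 FPKM in the former and at most 0.05 FPKM in the latter except in BF10 replicate 3, where it was 3.29 FPKM, so that this library held Xist and a Y-linked transcript together. Whether the sides share host sex, strain and tumor line could not be settled from the labels. Any difference between Ctrl-IgG or aCSF1R on one side and IL-10-Fc or BF10 on the other therefore comes with these differences, and the treatment and these differences cannot be told apart in it. The 4 libraries of highest FPKM sum (replicate 2 of Ctrl-IgG, 1 and 2 of IL-10-Fc, and 1 of BF10, with sums of 819001 to 976950 against 637596 to 701275 in the other 8) also gave the highest mitochondrial share, 6.57% to 9.04% against 2.99% to 3.61%. The sample titles hold a code of unstated meaning, and these 4 were among the 7 libraries whose code starts with 1 to 4, with none among the 5 that start with 5 to 7. In bulk tissue, fewer cells of a type and less RNA per cell cannot be told apart.

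The response genes were high in every Ctrl-IgG and aCSF1R library and lower in every IL-10-Fc and BF10 library. Their mean log2(FPKM + 1) over the 41 genes came to 6.126, 5.436 and 5.789 for Ctrl-IgG (replicates in order, here and throughout) and to 6.042, 5.995 and 5.972 for aCSF1R. For IL-10-Fc it came to 4.213, 4.085 and 4.522, and for BF10 to 4.465, 4.503 and 5.083. The lowest of the first 6 libraries was Ctrl-IgG replicate 2 and the highest of the other 6 was BF10 replicate 3, and the 2 sides did not overlap. By group the mean came to 5.78 ± 0.34 for Ctrl-IgG, 6.00 ± 0.036 for aCSF1R, 4.27 ± 0.22 for IL-10-Fc and 4.68 ± 0.35 for BF10 (SD, n = 3). The difference of these means from that of Ctrl-IgG was 0.22 for aCSF1R, −1.51 for IL-10-Fc and −1.10 for BF10, all on the log2 scale. Levels covered a wide range, with the membrane protein tetherin (Bst2), which holds budding virus on the cell, contributing 16.25% of the summed FPKM of the 41 genes over all libraries. The map of the 41 genes shows the step between the sides in most rows, and rows such as Isg20 and Ifi27 without it.

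**Figure D1:**
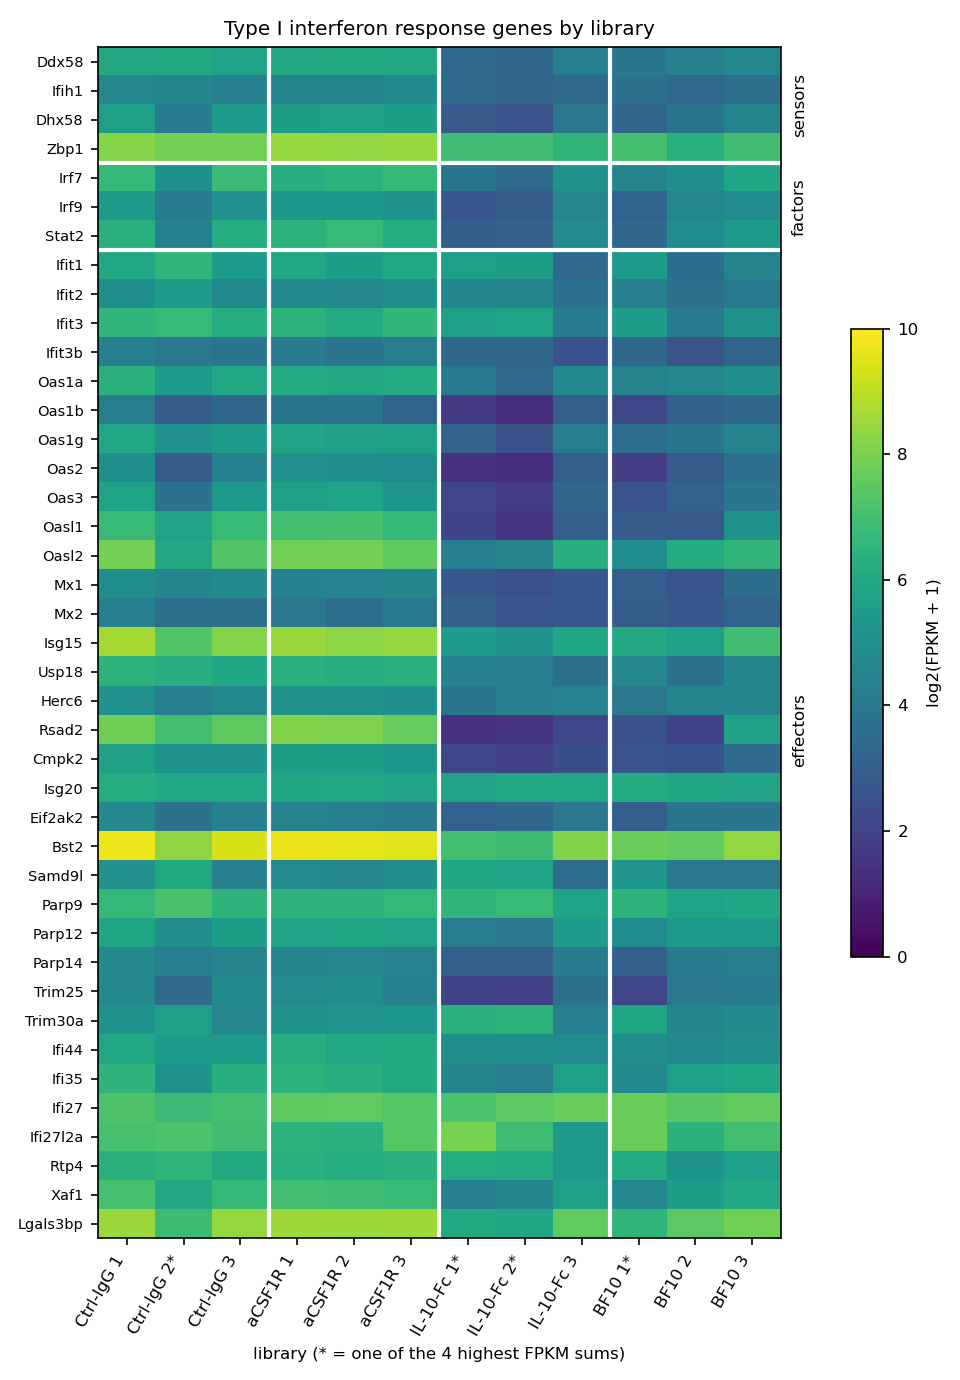
Level of each of the 41 type I interferon response genes (rows, sensors at the top, then transcription factors, then effectors) in each of the 12 libraries (columns), as log2(FPKM + 1) on the color scale; an asterisk marks the 4 libraries of highest FPKM sum. Bst2 is the brightest row, and Rsad2, Oasl1 and Cmpk2 go from bright in the 6 libraries on the left to dark in most of those on the right.

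The 3 transcription factors carry the signal to the promoters: Stat2 and Irf9 are parts of the complex formed at the receptor, and Irf7 drives further interferon production. Stat2 was 80.68, 20.3 and 72.43 FPKM in Ctrl-IgG, 87.95, 108.5 and 71.52 in aCSF1R, 6.78, 7.3 and 27.13 in IL-10-Fc, and 9.5, 27.97 and 39.92 FPKM in BF10. Ctrl-IgG replicate 2, at 20.3 FPKM, lay below IL-10-Fc replicate 3 and 2 BF10 libraries, so the groups overlapped. Irf7 followed the same order, with 99.49, 31.17 and 110.7 FPKM in Ctrl-IgG, 77.92, 86.77 and 103.5 in aCSF1R, 13.69, 10.01 and 32.97 in IL-10-Fc, and 21.46, 30.65 and 59.98 FPKM in BF10. Irf9 was 40.16, 16.4 and 31.96 FPKM in Ctrl-IgG, 38.49, 39.29 and 33.99 in aCSF1R, 5.39, 6.59 and 23.74 in IL-10-Fc, and 8.34, 24.74 and 27.75 FPKM in BF10. In each group that held any of the 4 libraries of highest FPKM sum, those libraries had the lowest value of all 3 factors, and the sides overlapped for Irf7 and Irf9 too.

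Stat2 and Irf7 fell in IL-10-Fc against Ctrl-IgG, by 2.05 ± 0.66 and 2.01 ± 0.55 on the log2 scale (log2 fold change ± SE of FPKM + 1, limma adjusted p = 0.0347 and 0.0166). Irf9 differed by −1.43 ± 0.56 and was not called (limma adjusted p = 0.0697). Against aCSF1R all 3 fell in IL-10-Fc, with log2 fold changes of −2.87 (Stat2), −2.35 (Irf7) and −1.85 (Irf9). In BF10 none of the 3 was called, either against Ctrl-IgG (−1.12, −1.02 and −0.59 for Stat2, Irf7 and Irf9) or against aCSF1R (−1.94, −1.35 and −1.003). Without the 4 libraries of highest FPKM sum, Stat2 was called in both BF10 comparisons (−1.17 against Ctrl-IgG, −1.37 against aCSF1R), as was Irf7 (−1.27 and −1.03), whereas Irf9, at −0.44 and −0.49, passed on adjusted p (0.0349 and 0.0158 by limma) and missed the fold of 1.5. In that fit IL-10-Fc is a single library, whose spread is taken from the other groups.

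**Figure D2:**
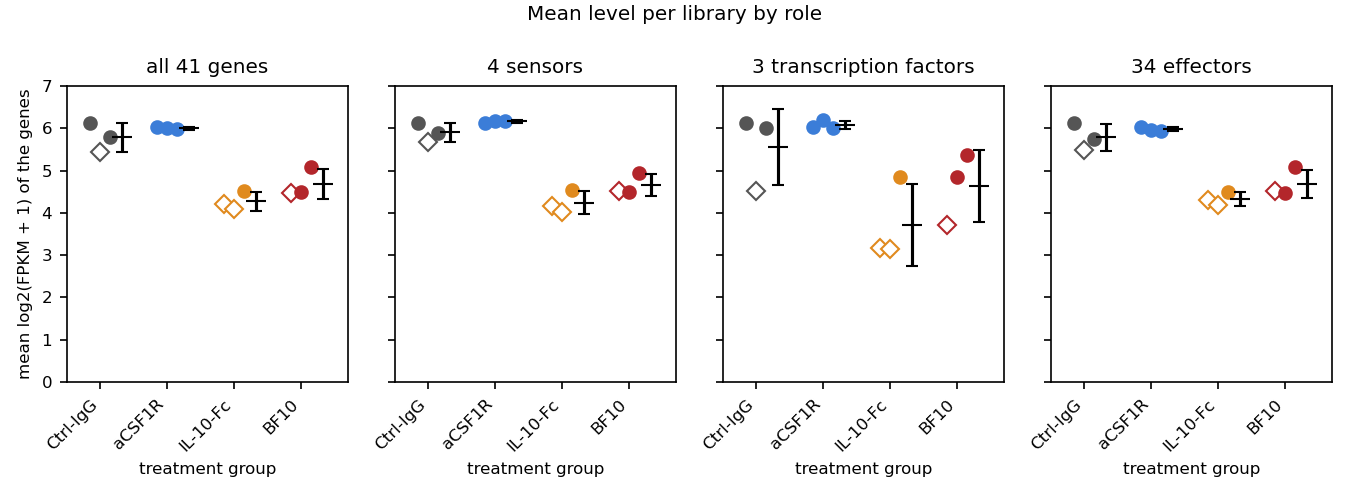
Mean log2(FPKM + 1) per library over all 41 genes, the 4 sensors, the 3 transcription factors and the 34 effectors, by treatment group; open diamonds are the 4 libraries of highest FPKM sum, and the black bar and whiskers give the group mean and SD (n = 3). For all genes, sensors and effectors the 6 IL-10-Fc and BF10 libraries lie below all Ctrl-IgG and aCSF1R libraries, while for the transcription factors the diamond of Ctrl-IgG, at 4.51, lies below 3 circles of the other side.

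The sensors separated the 2 sides. Ddx58 (RIG-I) and Ifih1 (MDA5) recognize double-stranded viral RNA, Dhx58 (LGP2) modulates both, and Zbp1 binds left-handed nucleic acid and can start necroptosis. Ddx58 was 64.13, 66.32 and 53.95 FPKM in Ctrl-IgG and 63.73, 66.46 and 62.51 in aCSF1R, against 9.7, 9.08 and 18.2 in IL-10-Fc and 14.33, 19.42 and 24.56 FPKM in BF10. Ifih1 was 24.02, 22.96 and 19.53 FPKM in Ctrl-IgG, 21.53, 21.57 and 25.52 in aCSF1R, 10.22, 8.77 and 9.57 in IL-10-Fc, and 11.99, 9.73 and 11.92 FPKM in BF10. For both genes every value on one side lay above every value on the other. Zbp1 was 291, 242 and 239 FPKM in Ctrl-IgG, 345.3, 335.9 and 345.9 in aCSF1R, 122.3, 121.8 and 91.28 in IL-10-Fc, and 132.3, 80.24 and 122.1 FPKM in BF10. Dhx58 was 48.72, 16.92 and 45.11 FPKM in Ctrl-IgG, 46.36, 52.46 and 46.43 in aCSF1R, 5.99, 4.83 and 14.74 in IL-10-Fc, and 9.1, 13.76 and 21.6 FPKM in BF10. Dhx58 was the only sensor whose sides overlapped, since Ctrl-IgG replicate 2 lay below BF10 replicate 3.

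All 4 sensors fell in IL-10-Fc against Ctrl-IgG, with log2 fold changes of −2.29 ± 0.27 (Ddx58), −1.14 ± 0.19 (Ifih1), −2.0004 ± 0.47 (Dhx58) and −1.20 ± 0.22 (Zbp1, all ± SE), with limma adjusted p between 0.000165 and 0.00787. In BF10 against Ctrl-IgG, Ddx58 (−1.64), Ifih1 (−0.92) and Zbp1 (−1.23) fell, and Dhx58 differed by −1.20 without being called (limma adjusted p = 0.0871). All 4 fell in BF10 against aCSF1R, with −1.71, −0.97, −1.72 and −1.64 for Ddx58, Ifih1, Dhx58 and Zbp1. Between BF10 and IL-10-Fc none was called, with differences of 0.65, 0.21, 0.80 and −0.023. The 4 were not called in aCSF1R against Ctrl-IgG either, where Zbp1 was 0.42 higher in means and its 3 aCSF1R libraries lay above all 3 Ctrl-IgG libraries. Over all tested genes, 23.6% in IL-10-Fc and 13.2% in BF10 were called lower against Ctrl-IgG, and 14.0% in BF10 against aCSF1R.

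Among the 34 effectors, Rsad2, Oasl1, Cmpk2 and Oas3 moved most in IL-10-Fc. Rsad2 (viperin, ENSMUSG00000020641, chr12:26442746-26456452), which makes a chain-terminating nucleotide, was 228.1, 124.9 and 182.5 FPKM in Ctrl-IgG and 275.4, 268.9 and 195.8 in aCSF1R. In IL-10-Fc it was 1.69, 1.8 and 3.47 FPKM, against 4.58, 3.04 and 52.52 FPKM in BF10. BF10 replicate 3 stood apart from the other 5 libraries of its side and below all Ctrl-IgG and aCSF1R libraries. Oasl1, an OAS-like protein that restrains Irf7 translation, showed the same picture, with 104.8, 53.77 and 109.5 FPKM in Ctrl-IgG, 123.7, 129.9 and 100.2 in aCSF1R, 3.08, 1.88 and 7.03 in IL-10-Fc, and 6.52, 5.92 and 33.71 FPKM in BF10. Cmpk2, a mitochondrial nucleotide kinase encoded next to Rsad2, was 51.38, 33.04 and 34.48 FPKM in Ctrl-IgG, 46.82, 47.85 and 37.41 in aCSF1R, 3.46, 2.92 and 4.22 in IL-10-Fc, and 5.11, 4.71 and 10.28 FPKM in BF10. For all 3 genes the sides did not overlap and BF10 replicate 3 was the highest library of its side.

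In IL-10-Fc against Ctrl-IgG the log2 fold change was −5.75 ± 0.76 for Rsad2, −4.24 ± 0.59 for Oasl1, −3.15 ± 0.29 for Cmpk2 and −2.60 ± 0.56 for Oas3, which makes the nucleotide messenger of RNase L (limma adjusted p = 0.000295, 0.000393, 4.13e-05 and 0.00498). Of the 41 genes, 25 were called lower and 0 higher in this comparison (61.0% lower), where 23.6% of the 15813 tested genes were called lower and 10.1% higher. Calls needed an adjusted p below 0.05 with a fold of 1.5 or more. The median difference of the 41 genes was −1.41, beside −0.39 over all tested genes. The values of the 2 groups did not overlap, with IL-10-Fc lower, in 21 of the 41 genes (51.2%) and in 25.2% of tested genes. Without Ctrl-IgG replicate 1 the count was 16, when 15.2% of tested genes were called lower. Leaving out the 4 libraries of highest FPKM sum leaves a single IL-10-Fc library. The median of the 41 genes was then −1.35, beside −0.18 over all tested genes. With median-of-ratios scaling, which moves the median of all tested genes from −0.39 to 0.014, the counts over the 41 were 17 lower and 1 higher (Ifi27), the median was −0.90, and calls over all tested genes went from 3729 lower and 1597 higher to 2612 lower and 2598 higher.

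**Figure D3:**
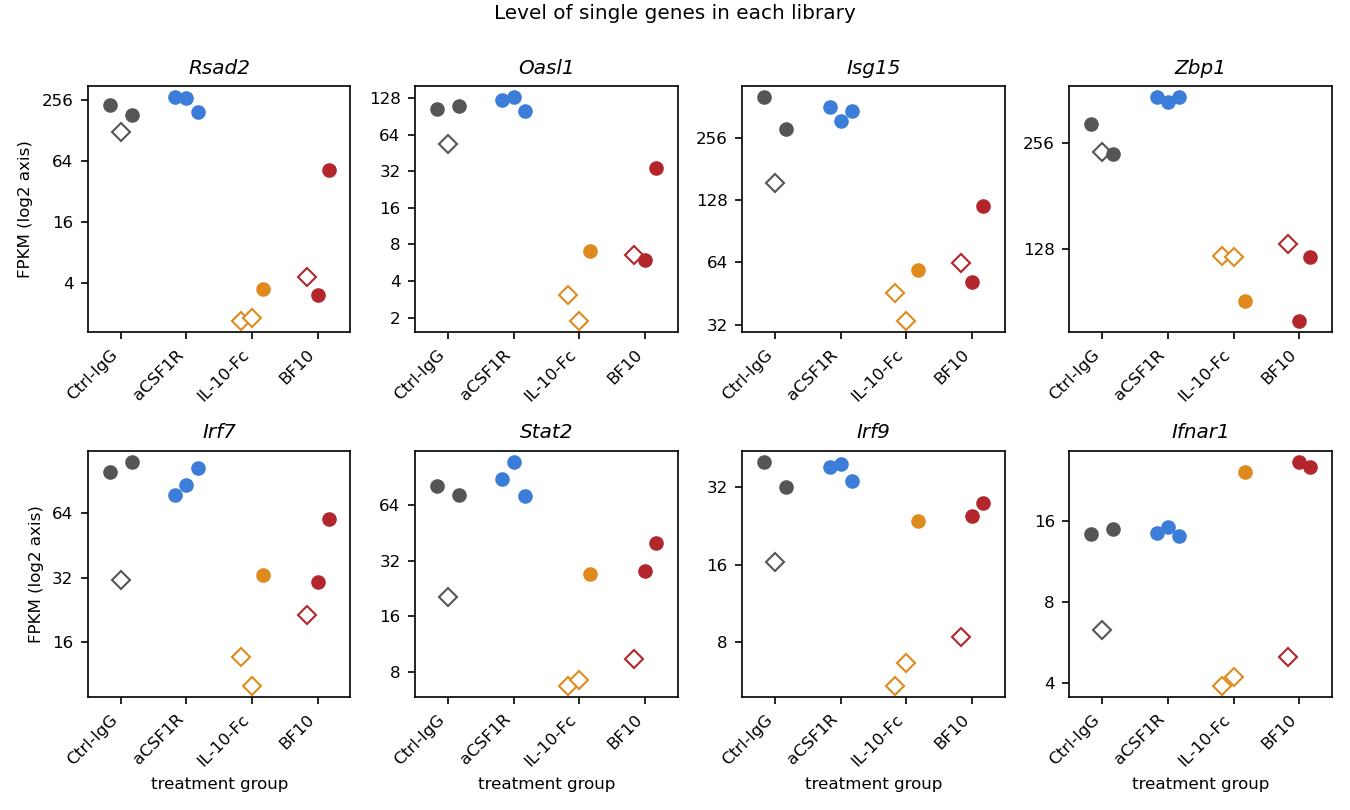
FPKM of 8 genes in each library on a log2 axis that differs between panels; circles are libraries, and open diamonds are the 4 libraries of highest FPKM sum. Rsad2, Oasl1, Isg15 and Zbp1 separate the 6 libraries on the left from the 6 on the right, and Irf7, Stat2, Irf9 and Ifnar1 are lowest in the diamonds of each group.

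In BF10 against Ctrl-IgG the 4 genes of largest difference were Rsad2 (−4.03 ± 0.76), Oasl1 (−2.82 ± 0.59), Cmpk2 (−2.44 ± 0.29) and Usp18 (−1.93 ± 0.28), which removes Isg15 from proteins and damps the receptor (limma adjusted p = 0.00319, 0.00538, 0.000242 and 0.000705). Here 18 of the 41 genes were called lower and 1 higher, where 13.2% of tested genes were called lower and 11.8% higher. The median of the 41 was −1.02, beside −0.12 over all tested genes. BF10 lay wholly below Ctrl-IgG in 20 genes (48.8%) and in 21.1% of tested genes. The 1 higher gene was Ifi27, at 146.8, 110.4 and 125.7 FPKM in Ctrl-IgG and 213.9, 171 and 193.3 FPKM in BF10, a difference of 0.59 ± 0.20 (limma adjusted p = 0.0479). That call was lost, with limma adjusted p from 0.0562 to 0.133, when any 1 library of either group was left out, and under 5 further alternatives, and without the 4 libraries of highest FPKM sum its fold fell short of 1.5. The count of called genes was 9 without Ctrl-IgG replicate 1 and 9 without BF10 replicate 2. In those fits 9.02% and 8.51% of tested genes were called lower. Without the 4 libraries of highest FPKM sum the count was 32, when 21.6% of tested genes were called lower. This comparison and that of IL-10-Fc share the 3 Ctrl-IgG libraries.

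The comparisons with aCSF1R gave the same 3 leading genes. In BF10 against aCSF1R, the log2 fold change was −4.52 for Rsad2, −3.28 for Oasl1, −2.61 for Cmpk2 and −2.37 for Oas3 (limma adjusted p = 0.00165, 0.00233, 0.000166 and 0.0105). There 21 of 41 genes were called lower and 0 higher, where 14.0% of tested genes were called lower and 11.0% higher, and the medians were −1.28 and −0.21. In IL-10-Fc against aCSF1R, it was −6.24 for Rsad2, −4.70 for Oasl1, −3.31 for Cmpk2 and −3.20 for Oas3 (limma adjusted p = 0.000179, 0.000205, 3.25e-05 and 0.0015), and 30 of 41 genes were called lower and 0 higher, where 31.2% of tested genes were called lower and 11.0% higher. Groups did not overlap, with the aCSF1R libraries above, in 35 of the 41 genes for BF10 (85.4%) beside 35.9% of tested genes, and in 33 for IL-10-Fc (80.5%) beside 40.6%. IL-10-Fc against Ctrl-IgG and BF10 against aCSF1R share no library, and their differences are plotted side by side. With median-of-ratios scaling 19 of the 41 were called lower in BF10 and 23 in IL-10-Fc against aCSF1R, and 16 in BF10 against Ctrl-IgG. Of tested genes, 12.9%, 19.6% and 12.9% were then called lower. For IL-10-Fc against aCSF1R this scaling moved the all-gene median from −0.51 to 0.00071, with 3096 genes called lower and 2927 higher in place of 4937 and 1732.

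**Figure D4:**
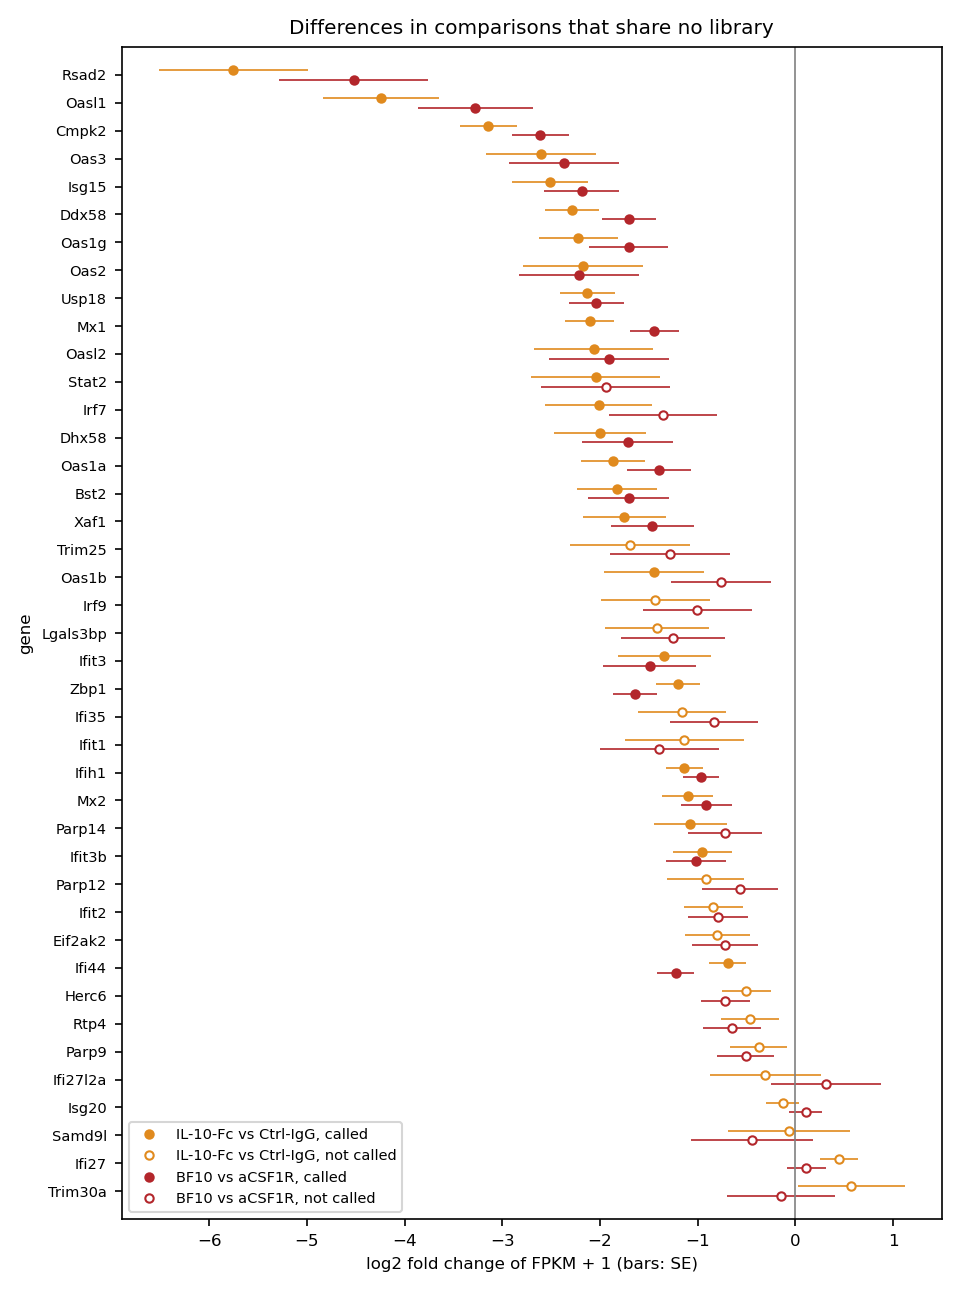
Log2 fold change of FPKM + 1 with its SE for each of the 41 genes, for IL-10-Fc against Ctrl-IgG (orange) and BF10 against aCSF1R (red), 2 comparisons with no library in common that both run across the sides; filled points were called by limma. Rsad2, Oasl1 and Cmpk2 lie at the far left in both, from −5.75 to −2.61. Isg20, Ifi27, Samd9l, Trim30a and Ifi27l2a were called in neither, with Trim30a at 0.57 and Ifi27 at 0.45 in IL-10-Fc against Ctrl-IgG.

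Active synthetases of the OAS group make the activator of RNase L, and active Mx GTPases block viral nucleocapsids. The OAS group as counted here includes the OAS-like Oasl1, and whether each member is active was not tested. By family, the OAS and Mx genes were the effector families called most often over the 4 comparisons across the sides together. In BF10 against Ctrl-IgG alone, the share called was higher for the IFIT genes (3 of 4) and the Isg15 system (2 of 3) than for the OAS genes (4 of 7). Oas3 was 54.52, 12.76 and 40.34 FPKM in Ctrl-IgG, 49.65, 54.19 and 38.23 in aCSF1R, 3.23, 2.35 and 8.97 in IL-10-Fc, and 4.89, 7.74 and 14.37 FPKM in BF10. Oas2 was 30.29, 6.39 and 19.92 FPKM in Ctrl-IgG, 32.16, 31.75 and 28.5 in aCSF1R, 1.68, 1.47 and 6.91 in IL-10-Fc, and 2.55, 6.15 and 11.56 FPKM in BF10. For both, Ctrl-IgG replicate 2 lay among the values of the other side, and aCSF1R lay above all of them. All 7 OAS genes were called lower in IL-10-Fc against Ctrl-IgG and against aCSF1R, 4 in BF10 against Ctrl-IgG and 6 in BF10 against aCSF1R. In that order, 23.6%, 31.2%, 13.2% and 14.0% of all tested genes were called lower. Mx1 and Mx2 were called lower in all 4 of these comparisons, Mx1 with −2.11, −1.84, −1.71 and −1.45 in the same order. Mx1 was 28.87, 22.47 and 26.28 FPKM in Ctrl-IgG, 19.92, 20.77 and 23.36 in aCSF1R, 5.66, 4.44 and 5.61 in IL-10-Fc, and 6.98, 4.98 and 10.51 FPKM in BF10, with no overlap of the sides.

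Isg15, its protease Usp18 and the membrane protein Bst2 were lower across the sides as well. Isg15, a ubiquitin-like modifier, was 402.9, 154.8 and 281.4 FPKM in Ctrl-IgG, 362.9, 308.2 and 344.7 in aCSF1R, 45.51, 33.37 and 58.61 in IL-10-Fc, and 63.81, 51.48 and 119.9 FPKM in BF10. Against Ctrl-IgG its log2 fold change was −2.51 ± 0.39 for IL-10-Fc and −1.81 ± 0.39 for BF10, and the sides did not overlap. Usp18 was 86.87, 76.93 and 60.07 FPKM in Ctrl-IgG, 83.54, 74.3 and 81.35 in aCSF1R, 20.09, 17.2 and 11.98 in IL-10-Fc, and 23.48, 12.2 and 22.49 FPKM in BF10. It was called lower in all 4 comparisons across the sides, and the ligase Herc6 in IL-10-Fc against aCSF1R alone. Bst2 was 851.6, 322.9 and 678.8 FPKM in Ctrl-IgG, 828.6, 800 and 738.8 in aCSF1R, 129.7, 115.1 and 276.6 in IL-10-Fc, and 214.4, 193.8 and 334.9 FPKM in BF10, with Ctrl-IgG replicate 2 below BF10 replicate 3, and was called lower in all 4. Oas1a with Oas1g, Ifit3 with Ifit3b and Mx1 with Mx2 are close copies of each other, so the split of reads within each pair is uncertain.

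The 4 IFIT genes, which bind foreign RNA and stop its translation, gave mixed calls. Ifit1 was 62.47, 96.67 and 43.69 FPKM in Ctrl-IgG, 62.97, 47.72 and 63.53 in aCSF1R, 48.58, 46.32 and 10.08 in IL-10-Fc, and 43.19, 10.47 and 20.95 FPKM in BF10, and it was called in none of the comparisons. Ifit3 and Ifit3b were called lower in IL-10-Fc against Ctrl-IgG, Ifit2, Ifit3 and Ifit3b in BF10 against Ctrl-IgG, Ifit3 and Ifit3b in BF10 against aCSF1R, and Ifit3b in IL-10-Fc against aCSF1R. Within Ctrl-IgG, IL-10-Fc and BF10, Ifit1 was highest in the libraries of highest FPKM sum, where Stat2 was lowest. The PARP genes Parp9, Parp12 and Parp14 gave 1 call in IL-10-Fc and 0 in BF10 against Ctrl-IgG, and the TRIM ligases Trim25 and Trim30a gave 0 in both. Against aCSF1R, Parp12, Parp14 and Trim25 (−2.12) were called lower in IL-10-Fc, and none of the 5 in BF10. Of all tested genes, 23.6% in IL-10-Fc and 13.2% in BF10 were called lower against Ctrl-IgG, and 31.2% and 14.0% against aCSF1R.

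Of the remaining induced genes, Ifi44 was called lower in all 4 comparisons across the sides, from −1.23 in BF10 against aCSF1R to −0.69 in IL-10-Fc against Ctrl-IgG. Xaf1, which antagonizes an inhibitor of apoptosis, was 135, 63.78 and 103.2 FPKM in Ctrl-IgG, 123.7, 118.4 and 109.2 in aCSF1R, 18.56, 23.17 and 49.79 in IL-10-Fc, and 24.43, 46.51 and 63.36 FPKM in BF10. Its sides touched without overlapping, and it was called lower in 3 of the 4, the exception being BF10 against Ctrl-IgG (−1.19). Lgals3bp, a secreted galectin ligand, and Ifi35 were called lower in IL-10-Fc against aCSF1R alone (−2.05 and −1.46), and in both genes Ctrl-IgG replicate 2 (113.8 and 34.21 FPKM) lay within the range of the other side. The kinase Eif2ak2 (PKR), which stops translation, and Rtp4 were not called in any comparison, with log2 fold changes across the sides of −0.84 to −0.67 and −0.70 to −0.42. Ifi27l2a, a close copy of Ifi27, ranged from 80.73 to 161.5 FPKM in Ctrl-IgG and aCSF1R and from 41.63 to 252 in IL-10-Fc and BF10, and was not called.

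Isg20, Samd9l and Trim30a showed no called difference across the sides, and neither did Ifit1, Parp9, Eif2ak2, Rtp4 and Ifi27l2a. Isg20, an RNA exonuclease, was 72.26, 63.28 and 61.51 FPKM in Ctrl-IgG, 58.06, 60.45 and 52.98 in aCSF1R, 57.04, 60.47 and 61.87 in IL-10-Fc, and 71.08, 58.61 and 55.86 FPKM in BF10. Its differences lay between −0.20 and 0.11 with an SE of 0.17, it was not called in any comparison, and with median-of-ratios scaling it stood at 0.38 ± 0.27 in IL-10-Fc against Ctrl-IgG. Samd9l, a translation inhibitor, ranged from 19.36 to 66.6 FPKM over Ctrl-IgG and aCSF1R and from 10.98 to 57.95 FPKM in the other 6 libraries, and Trim30a from 23.85 to 50.48 and from 18.95 to 86.16 FPKM. The SEs of their differences were 0.62 and 0.55, and neither was called.

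Within each side the treatments gave no called difference in these genes. In aCSF1R against Ctrl-IgG 0 of the 41 genes were called, as were 0% of all tested genes, and 2 of the 41 reached an unadjusted p under 0.05, beside 2.76% of tested genes. The median was 0.22, beside 0.11 over all tested genes, and the smallest adjusted p by limma was 0.958. Leaving out replicate 1 of Ctrl-IgG gave a median of 0.51, leaving out its replicate 2 gave 0.052, and the value was 0.093 with median-of-ratios scaling (0.14, 0.0025 and 0.0086 over all tested genes). The 4 genes of smallest p were Ifi44 (0.47 ± 0.19), Ifi27 (0.48 ± 0.20), Zbp1 (0.42 ± 0.22) and Oas2 (0.91 ± 0.62). Ifi44 was 61.57, 42.38 and 43.15 FPKM in Ctrl-IgG and 74.09, 62.8 and 65.94 in aCSF1R, and Ifi27 was 182, 185.7 and 165.3 FPKM in aCSF1R against at most 146.8 in Ctrl-IgG. The aCSF1R libraries lay wholly above Ctrl-IgG in 4 genes (9.76%), beside 8.87% of tested genes. The summed macrophage markers (Csf1r, Adgre1, Cd68, Mrc1, C1qa, C1qb, C1qc, Fcgr1 and Mertk) were 255.7 to 276 FPKM in aCSF1R and 430.2 to 788.1 FPKM in Ctrl-IgG.

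In BF10 against IL-10-Fc 0 of the 41 genes were called, beside 0.0126% of tested genes, and 4 had an unadjusted p under 0.05, all higher in BF10, beside 5.24% of tested genes in either direction. These were Oasl1 (1.42 ± 0.59), Cmpk2 (0.70 ± 0.29), Ddx58 (0.65 ± 0.27) and Rsad2 (1.72 ± 0.76), each with a limma adjusted p of 0.478. Cmpk2 alone had BF10 wholly above IL-10-Fc, 1 of 41 genes (2.44%) beside 4.67% of tested genes. The median of the 41 was 0.57, beside 0.34 over all tested genes. Leaving out replicate 2 of IL-10-Fc gave a median of 0.34, leaving out replicate 3 of BF10 gave 0.31, and the value was 0.14 with median-of-ratios scaling (0.20, 0.25 and 0.036 over all tested genes). Leaving out replicate 3 of IL-10-Fc gave 0.81, and leaving out replicate 1 of BF10 gave 0.77 (0.53 and 0.46 over all tested genes). Without replicate 3 of IL-10-Fc, 25 of the 41 genes had an unadjusted limma p under 0.05, 21 of them higher in BF10. So had 7834 of the 15813 tested genes, and the smallest limma adjusted p among the 41 was 0.0504. BF10 replicate 3 had the highest of the 3 BF10 values in 26 of the 41 genes and exceeded BF10 replicate 2 in 39, by a median of 0.44 on the log2 scale beside 0.026 over all tested genes. Without it, the difference of Rsad2 between BF10 and IL-10-Fc was 0.56 ± 0.34 in place of 1.72, and against Ctrl-IgG it was −5.20 ± 0.34 in place of −4.03. In the same library Eif2s3y was 3.29 FPKM against at most 0.05 in the other BF10 and IL-10-Fc libraries, and Rhox5 was 111.2 FPKM against 0.37 to 20.62 in these and 574.7 to 790.6 in Ctrl-IgG and aCSF1R. The part of these transcripts in the values of replicate 3 was not tested.

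An excess of BF10 over its 2 components was measured as the difference between BF10 and aCSF1R less that between IL-10-Fc and Ctrl-IgG, a quantity in which the contrast of the sides cancels as far as it is the same in both. Here 0 of the 41 genes were called, beside 0.00632% of tested genes, and 0 had an unadjusted p under 0.05, beside 2.61%. The medians were 0.19 over the 41 genes and 0.19 over all tested genes. Leaving out 1 library at a time moved the former between −0.014 (without BF10 replicate 3) and 0.56 (without Ctrl-IgG replicate 2), and median-of-ratios scaling moved it to −0.082. The genes of smallest p were Ifi44 (−0.53 ± 0.27), Mx1 (0.66 ± 0.35), Ddx58 (0.58 ± 0.39) and Zbp1 (−0.44 ± 0.32), each with a limma adjusted p of 0.9996.

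Upstream of the response, the ligands were hardly measured. All 18 type I interferon genes listed (Ifnb1, the interferon alpha genes, Ifnab, Ifne, Ifnk and Ifnz) stayed under 1 FPKM in all 12 libraries, and 10 were listed at 0 in each. Ifnb1 was 0.61, 0.45 and 0.16 FPKM in Ctrl-IgG, 0.42, 0 and 0.17 in aCSF1R, 0.16, 0.28 and 0 in IL-10-Fc, and 0.24, 0.04 and 0 FPKM in BF10. The summed ligands were 0.79 to 1.31 FPKM in Ctrl-IgG, 0.37 to 0.92 in aCSF1R, at most 0.39 in IL-10-Fc and 0.09 to 0.29 in BF10, and none entered a test. FPKM values carry no read counts, so no detection limit is given.

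The receptor genes did not follow the response genes. Ifnar1 was 14.33, 6.28 and 14.96 FPKM in Ctrl-IgG, 14.42, 15.19 and 14.12 in aCSF1R, 3.89, 4.19 and 24.29 in IL-10-Fc, and 5, 26.55 and 25.45 FPKM in BF10, with the low values all in the libraries of highest FPKM sum. Ifnar2 lay between 32.37 and 45.16 FPKM in all 12 libraries. None of Ifnar1, Ifnar2, Jak1 and Tyk2 was called in any comparison. Ifng, the type II interferon, was 0.89 to 2.57 FPKM over the 12 libraries, and 0 of the 3 genes for interferon gamma and its receptor were called in any comparison.

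Among 13 genes of the steps that lead to interferon production, 4 were called lower and 0 higher in IL-10-Fc against Ctrl-IgG, and 1 and 0 in BF10. Mavs, the adaptor of Ddx58 and Ifih1, was 37.52, 17.84 and 28.44 FPKM in Ctrl-IgG, 34.59, 39.56 and 32.91 in aCSF1R, 2.76, 2.36 and 9.32 in IL-10-Fc, and 5.07, 10.6 and 14.83 FPKM in BF10. Its log2 fold change against Ctrl-IgG was −2.45 ± 0.47 for IL-10-Fc and −1.42 ± 0.47 for BF10. In IL-10-Fc the DNA sensor Cgas (−2.19), the Toll-like receptor adaptor Myd88 (−1.70) and the kinase Tbk1 (−0.64) fell, while Sting1, which Cgas signals through, lay between 44.76 and 73.48 FPKM in all libraries. Of 9 genes that restrain the pathway, 4 were called lower in IL-10-Fc (the RNA and DNA degrading Rnaseh2a, Rnaseh2b and Trex1, and the nucleotide-depleting Samhd1, from −1.59 to −0.87) and 2 in BF10 (Rnaseh2a −1.22, Rnaseh2b −0.98) against Ctrl-IgG. These counts stand beside 23.6% and 13.2% of tested genes called lower.

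A list of 50 further interferon-induced genes gave 19 called lower and 3 higher in IL-10-Fc, and 14 lower and 2 higher in BF10, against Ctrl-IgG, with medians of −0.75 and −0.54. Over all tested genes 23.6% and 13.2% were called lower and 10.1% and 11.8% higher, with medians of −0.39 and −0.12. Its largest differences ran both ways. Trim12a, a TRIM protein, was 19.78 to 31.86 FPKM over Ctrl-IgG and aCSF1R, at most 0.08 in IL-10-Fc, and 0.89, 0.05 and 6.57 FPKM in BF10. Ifi213, of the DNA-binding PYHIN family, was 13.09 to 16.73 FPKM in the former, at most 0.15 in IL-10-Fc, and 0.22, 0.22 and 4.5 FPKM in BF10. Ifi44l went the other way, at most 0.33 FPKM in Ctrl-IgG and aCSF1R and 13.58 to 40.94 in IL-10-Fc and BF10. Like H2-Ea, these 3 genes were near 0 on one side. BF10 replicate 3 again lay between the sides for Trim12a and Ifi213, as it did for Rsad2 and Oasl1. The cytidine deaminase Apobec3 fell in IL-10-Fc (−2.61) and in BF10 (−1.65) against Ctrl-IgG. Against aCSF1R, 22 of the 50 were called lower and 4 higher in IL-10-Fc, and 12 lower and 3 higher in BF10, beside 31.2% and 14.0% of tested genes called lower and 11.0% called higher in each.

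Markers of cells that could carry the response also differed between libraries. The sum of 8 plasmacytoid dendritic cell markers was 16.23 to 119.2 FPKM in Ctrl-IgG, 24.64 to 95.82 in aCSF1R, 24.57 to 30.33 in IL-10-Fc and 37.09 to 57.92 in BF10, with their defining gene Siglech at 0.13 to 2.24 FPKM over all 12 libraries. The 3 libraries with squamous markers, named below, held the 3 highest of these sums. Ly6d alone gave 91.49 FPKM in Ctrl-IgG replicate 3, and 47.43 and 68.69 FPKM in aCSF1R replicates 1 and 2. Only 5 of the 8 markers were tested. For BF10 against Ctrl-IgG, 3 of them were called higher and 1 lower, with a median log2 fold change of 1.11. For IL-10-Fc against Ctrl-IgG, 1 was called higher and 1 lower, with a median of 0.37. The sum of the 9 macrophage markers was higher with IL-10-Fc (806.3 to 1282 FPKM) or BF10 (1057 to 1167) than in any Ctrl-IgG or aCSF1R library. Most single markers were not called against Ctrl-IgG. There, 3 of the 9 were called higher for IL-10-Fc (median log2 fold change 0.036) and 3 for BF10 (median 0.47), with 0 lower. Against aCSF1R, 5 were called higher for IL-10-Fc (median 1.32) and 7 for BF10 (median 1.74). Of all tested genes, 10.1% were called higher for IL-10-Fc and 11.8% for BF10 against Ctrl-IgG, and 11.0% for each against aCSF1R. Called lower against Ctrl-IgG were 23.6% for IL-10-Fc and 13.2% for BF10. The 9 T and NK cell markers summed to 20.06 to 64.32 FPKM over all libraries. The 6 simple epithelial markers summed to at most 9.11 FPKM in Ctrl-IgG and aCSF1R and at least 598.3 in IL-10-Fc and BF10, whereas the 8 squamous keratinocyte markers summed to 1212 to 1759 FPKM in Ctrl-IgG replicate 3 and aCSF1R replicates 1 and 2 and to at most 32.4 in the other 9 libraries. In those 9 the tissue therefore showed little of the squamous keratins of oral epithelium. Among Ctrl-IgG and aCSF1R libraries, the mean of the 41 genes was 6.126, 5.436 and 5.972 in the 3 whose squamous markers summed to 1.05, 0.96 and 2.62 FPKM (Ctrl-IgG replicates 1 and 2 and aCSF1R replicate 3), and 5.789, 6.042 and 5.995 in the 3 with these markers. Monocyte markers (5 genes) summed to 93.4 to 448.5 FPKM, skeletal muscle markers (8) to 22.53 to 1042 FPKM, and endothelial markers (5) to 23.68 to 65.56 FPKM over all libraries, while 6 fibroblast markers summed to at most 606.6 FPKM in Ctrl-IgG and aCSF1R and at least 1014 FPKM in IL-10-Fc and BF10. The part of these cell types, squamous cells included, in the results was not tested.

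In the libraries of highest FPKM sum the response genes differed from the other libraries of their group by an amount that went with base composition. In Ctrl-IgG, replicate 2 against the mean of the others gave differences in log2(FPKM + 1) with a Pearson r of −0.60 to the GC content of the transcript across the 41 genes, and the same r was −0.52 in IL-10-Fc and −0.36 in BF10. Over the 13176 tested genes with a GC value these were −0.63, −0.47 and −0.43. Genes are not independent replicates, and these values share the depth and preparation of the same libraries. The 20 response genes of higher GC content (above a median of 50.5%) had a median difference of −1.03 in Ctrl-IgG, −1.28 in IL-10-Fc and −0.72 in BF10, and the other 21 of −0.28, −0.014 and −0.011. Stat2 and Oas2 were among the former, and Samd9l, Ifit1 and Trim30a, which were higher in the high-sum libraries, among the latter. Over the 8 other libraries alone, the mean of the 41 genes differed from Ctrl-IgG by −1.44 in IL-10-Fc and by −1.16 in BF10.

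**Figure D5:**
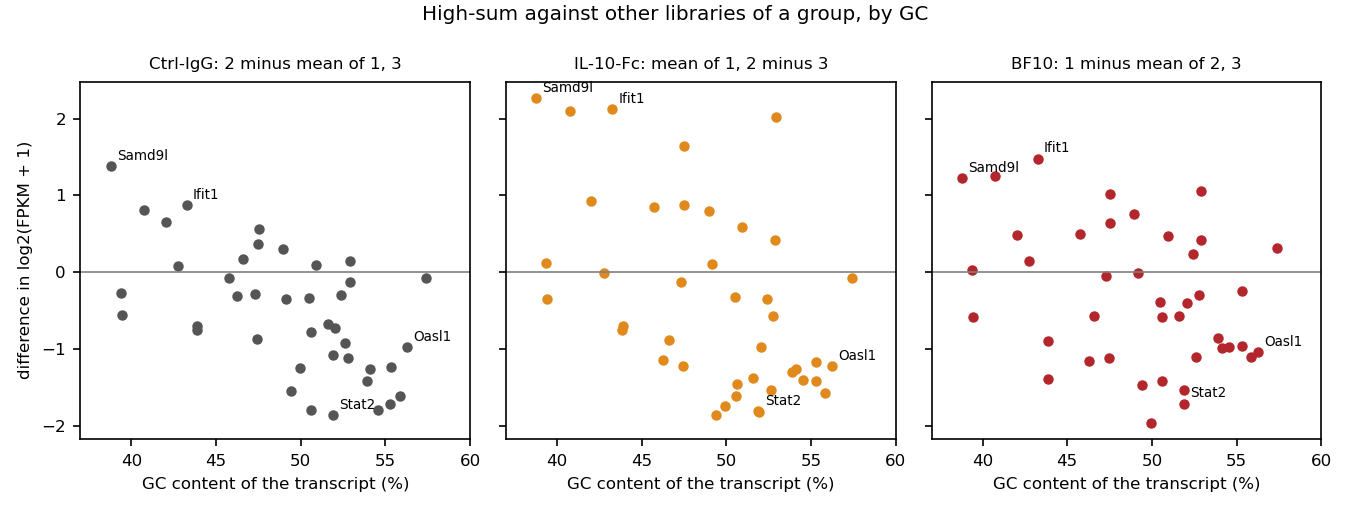
Difference in log2(FPKM + 1) between the libraries of highest FPKM sum and the other libraries of the same group (vertical axis) against the GC content of the transcript (horizontal axis) for the 41 genes, in the 3 groups that hold such libraries. Samd9l and Ifit1 lie above 0 at low GC content and Stat2 and Oasl1 below 0 at high GC content in all 3 panels.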

How the data were processed

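RNA was extracted from 12 tumor samples with TRIzol, and stranded mRNA libraries were sequenced on an Illumina NextSeq instrument. The authors deposited FPKM values for 55401 genes per library, on mouse GRCm38. The submitters' processing notes name STAR 2.7.5a, RSEM 1.3.3 and DESeq2 1.30.0 without saying which made which file. The authors' 4 comparison tables (mean normalized count, log2 fold change, standard error, statistic, p and adjusted p) were not used. Groups came from the treatment given for each sample, and replicate numbers follow accession order and name libraries only.

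FPKM values are not counts, read depth was not recovered from them, and so no count model was run and no counting interval is given. Values were transformed to log2(FPKM + 1), a scale that understates changes of low genes. limma 3.58.1 (trended empirical Bayes, R 4.3.3) fitted all 12 libraries without covariates for the 15813 genes that reached 1 FPKM in 3 or more libraries, and Benjamini-Hochberg adjustment ran over these genes. The script was tested on simulated data. Scores are means of log2(FPKM + 1) and were not tested. Positions are from GENCODE M21, which held 99.5% of the gene identifiers.

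All 41 genes were accounted for. Values in every library were given for the factors and sensors, the most abundant gene, and, per comparison, the 4 genes of largest difference (with none called, of smallest p). Other pathway genes came from lists, with values for ligands, receptors and up to 4 called genes per list; Isg15, Ifit1, Isg20, Xaf1, Lgals3bp, Ifi35, Samd9l, Trim30a, Sting1 and Rhox5 were added after their values were seen. Some results are not reported here. The members and lists were chosen with earlier results of these data known.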

Additional observations from a re-analysis of the deposited data

How the results depend on the processing

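Every call of the 4 comparisons across the sides kept its sign under every alternative run, and 0 of the 41 genes were called in aCSF1R against Ctrl-IgG, in BF10 against IL-10-Fc and for the departure from the sum under any of them. Fitting only the groups compared gave 15 calls in IL-10-Fc and 12 in BF10 against Ctrl-IgG, in place of 25 and 19, while 11.5% and 8.75% of tested genes were called lower in place of 23.6% and 13.2%. The log2 FPKM sum as covariate gave 35 calls in BF10 against Ctrl-IgG and 34 against aCSF1R, with 24.5% and 24.3% of tested genes called lower in place of 13.2% and 14.0%, and leaving out the 4 libraries of highest sum gave 32 in BF10 against Ctrl-IgG (21.6% of tested genes lower). The leading number of the title code (1 to 4 against 5 to 7) as covariate gave 31 calls in IL-10-Fc and 23 in BF10 against Ctrl-IgG, with 4723 and 2687 of the 15813 tested genes called lower. Leaving out 1 library at a time gave 16 to 30 calls in IL-10-Fc and 9 to 19 in BF10 against Ctrl-IgG. In those fits 15.1% to 37.6% of tested genes were called lower in IL-10-Fc and 8.51% to 12.2% in BF10. Median-of-ratios scaling, which moved the median of all tested genes in IL-10-Fc against Ctrl-IgG from −0.39 to 0.01, moved the difference of the 41-gene mean to −1.03 in that comparison, −1.12 in IL-10-Fc against aCSF1R, 0.0030 in BF10 against IL-10-Fc and −0.089 for the departure. Rescaling to TPM gave −2.05 in IL-10-Fc against aCSF1R. The cause of these shifts was not tested. No paired analysis was possible because the labels give no replicate numbers and the title codes, of unstated meaning, share only the leading number 6 between groups (1 library each of aCSF1R, IL-10-Fc and BF10). No value has a counting error, since read depth was not recovered from the FPKM values.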
